A study of Mus musculus with 3 samples.

Results

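The genes described here are the insulin-like growth factor (IGF) ligand gene Igf1, the receptor genes Igf1r and Insr, the receptor adaptor genes Irs1 and Irs2, and the binding protein genes Igfbp2, Igfbp3, Igfbp4, Igfbp6 and Igfbp7. They were taken by symbol from the deposited count table, and all 10 were found among its 34591 gene symbols. The table covered RNA of 4T1, an established murine breast cancer line, in 1 group of 3 samples whose genotype label is WISP2 OE, that is, over-expression of WISP2. WISP2 is a CCN family protein that cells secrete into the matrix. The protocol in the labels describes vectors for Wisp1DCT and Myc-tagged Wisp1, delivered from 293FT cells and selected with puromycin, and gives neither the WISP2 construct nor the number of clones. The empty-vector 4T1 controls of the study were not analysed here, so the values describe the over-expressing cells and no effect of WISP2 was estimated. Whether the libraries stem from separate cultures is not stated, so every SD and p-value covers the spread between these samples, which may be technical.

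IGF1 and IGF2 act through the IGF1 receptor, a receptor tyrosine kinase closely related to the insulin receptor, with which it can form hybrid receptors. The activated receptors phosphorylate the docking proteins IRS1 and IRS2, which recruit phosphoinositide 3-kinase and so feed the AKT, FOXO and mTOR branches. Outside the cell the IGF-binding proteins hold IGFs with high affinity and are cut by proteases that release the ligand; IGFBP7 binds IGFs only weakly. In the mammary gland IGF1 is supplied largely by the circulation and the stroma, and the epithelium responds through its receptors. CCN proteins, WISP2 included, begin with a domain related to the amino-terminal domain of the IGFBPs.

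The libraries, called C1, C2 and C3 after the endings of their column names, held 17630755, 67028365 and 47577315 counts, so 1 count was worth 0.0567, 0.0149 and 0.0210 CPM (counts per 1000000 counts of the library). Wisp2, the gene named by the genotype label, stood at 429, 384 and 454 CPM. All 5 epithelial markers reached 1 CPM in every library, with Krt8 at 1077 ± 80.8 CPM (SD, n = 3). None of 7 fibroblast, 4 endothelial, 3 adipocyte and 3 muscle markers did. Of 7 leukocyte markers 2 did, and their summed level was 18.8, 9.52 and 9.75 CPM in C1, C2 and C3, with Cd3e at 0.

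The cells carried transcripts of both receptors, both adaptors and a pair of binding proteins, and next to none of the ligand. Of the 10 genes 6 were at 1 CPM or more in every library, against 33.8% of all 34591 symbols. These were Igf1r, Insr, Irs1, Irs2, Igfbp4 and Igfbp7. The other 4, Igf1, Igfbp2, Igfbp3 and Igfbp6, were under 1 CPM in every library, and Igfbp3 had no count in any. In these bulk libraries, fewer cells expressing a gene and less RNA per cell cannot be told apart.

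**Figure D1:**
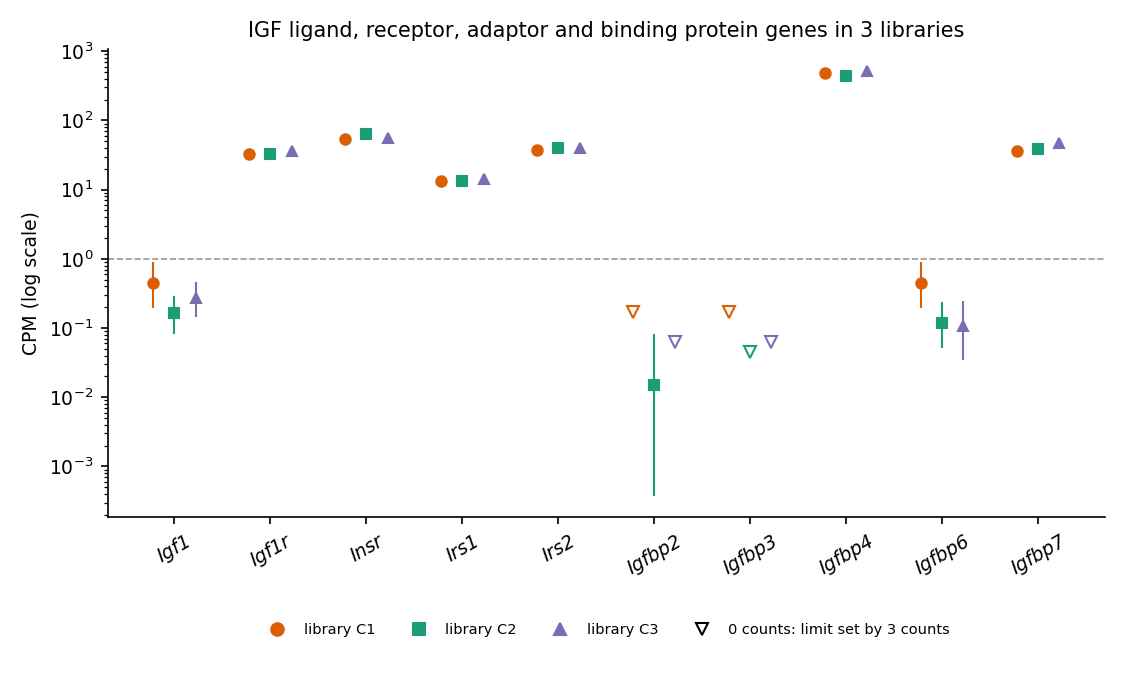
CPM (log axis) of the 10 genes in libraries C1, C2 and C3, with exact 95% intervals for counting error; open triangles mark libraries with 0 counts, drawn at the level of 3 counts, and the dashed line is 1 CPM. Igfbp4 stands between 442 and 521 CPM, 5 genes lie between 13.2 and 63.6 CPM, and Igf1, Igfbp2, Igfbp3 and Igfbp6 lie under the line.

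The ligand gene Igf1 was close to the detection limit. Libraries C1, C2 and C3 held 8, 11 and 13 counts of it, which is 0.454, 0.164 and 0.273 CPM. The exact 95% intervals were 0.196 to 0.894, 0.0819 to 0.294 and 0.145 to 0.467 CPM. A Poisson dispersion test without a filter on low counts gave adjusted p = 0.199, so no difference between the libraries was resolved at this depth. C1, the library with the highest value, was also the one with the highest summed level of the leukocyte markers: Lyz2, the macrophage lysozyme, stood at 9.42, 3.12 and 3.78 CPM in C1, C2 and C3 and the macrophage marker Emr1 at 1.76, 0.343 and 0.462 CPM, whereas Ptprc, common to leukocytes, had 1, 8 and 13 counts. The summed endothelial markers (0.284, 0.0746 and 0.189 CPM) and muscle markers (0.227, 0.134 and 0.105 CPM) were highest in C1 too. Those of fibroblasts and adipocytes were not. The part of any such cells in the Igf1 counts was not tested. The receptor gene exceeded the ligand gene in 3 of 3 libraries: Igf1r had 4467 summed counts against 32 for Igf1, a ratio of 139.6 (exact 95% counting interval 98.7 to 204), or 69.3-fold per kilobase of exon (6.12 ± 0.75 on the log2 scale). The other ligand genes of the receptor family, Igf2, Ins1 and Ins2, had 0 counts everywhere. A count of 0 leaves room for a level of 0.170, 0.0448 and 0.0631 CPM in C1, C2 and C3.

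Both receptor genes were transcribed at moderate levels, and Insr was the higher. Insr, the insulin receptor gene, stood at 53.8, 63.6 and 56.6 CPM in C1, C2 and C3, a mean of 58.0 ± 5.08 CPM. Igf1r, the gene of the IGF1 receptor, stood at 32.3, 32.2 and 36.5 CPM, a mean of 33.7 ± 2.44 CPM. The values of the 2 genes did not overlap. C2 was the highest library for Insr, and C3 for Igf1r.

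Because CPM grows with transcript length, levels of different genes were compared per kilobase of annotated exon. On that scale the mean level was 4.22 ± 0.369 CPM per kb for Insr and 2.01 ± 0.146 for Igf1r. Within libraries Igf1r lay 1.07 ± 0.18 below Insr on the log2 scale (Insr 2.10-fold higher, in 3 of 3 libraries). With 3 libraries an exact two-sided sign-flip test cannot go below p = 0.25, so no p-value is given for this or any other ratio of genes. Igf2r, the mannose 6-phosphate receptor that takes up IGF2 for degradation and does not signal like the kinases, was higher than both, at 170 ± 11.6 CPM and 18.3 ± 1.25 CPM per kb. It exceeded Igf1r by 9.10-fold per kb and Insr, a pair added after the values were seen, by 4.33-fold. Without length correction these ratios were 5.04 and 2.93. The remaining receptor of the family, the insulin receptor-related Insrr, had 1 count in all.

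The adaptors were unequal. Irs2 stood at 37.5, 39.9 and 40.5 CPM in C1, C2 and C3 (39.3 ± 1.57), and Irs1 at 13.3, 13.2 and 14.2 CPM (13.6 ± 0.528). Every library had more Irs2 than Irs1, and neither gene moved by more than 1.08-fold between libraries. Per kb the levels were 6.21 ± 0.249 for Irs2 and 1.48 ± 0.0577 for Irs1, so Irs1 lay 2.07 ± 0.05 lower on the log2 scale (Irs2 4.19-fold higher, or 2.89-fold without length correction). The opposite-strand gene Gm9747 overlaps 30.9% of the exon length of Irs1 in the GENCODE annotation but had 1 count in all, so few reads were assigned to it. Whether the counting left out reads from that overlap is not known, and if it did, Irs1 is understated. Of the family's other docking proteins Irs3 had 3 counts, all in C3, and Irs4 had 0.

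Among the binding proteins 1 gene accounted for most of the transcripts. Igfbp4, a secreted IGF-binding protein known mainly as an inhibitor of IGF action that the protease PAPP-A removes, stood at 488, 442 and 521 CPM in C1, C2 and C3, a mean of 484 ± 39.5 CPM, above 97.6% of the genes at 1 CPM or more. Igfbp7, a matrix-associated relative of low IGF affinity, stood at 35.8, 38.5 and 47.3 CPM (40.5 ± 6.01). The other 3 binding protein genes were at or near 0. Igfbp6, which prefers IGF2, had 8, 8 and 5 counts (0.454, 0.119 and 0.105 CPM, intervals 0.196 to 0.894, 0.0515 to 0.235 and 0.0341 to 0.245), Igfbp2 had 1 count, in C2, and Igfbp3, which encodes the main IGF carrier of serum, had none. Without C1 the mean of Igfbp6 fell from 0.226 to 0.112 CPM. C1 was also the library with the highest summed level of the leukocyte markers, though not of Ptprc. The summed endothelial and muscle markers, all near 0, were highest in C1 as well, unlike those of fibroblasts and adipocytes. The part of any such cells was not tested. Igfbp1 and Igfbp5, the members of the canonical family outside the 10 genes, had 0 counts.

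Per kilobase Igfbp4 made up 78.6% of the summed level of Igfbp1 to Igfbp7 in C1, and 75.8 and 75.1% in C2 and C3 (76.5% ± 1.88), and Igfbp7 made up 21.1, 24.1 and 24.9% (23.4% ± 2.01). Igfbp6 contributed 0.291, 0.0813 and 0.0601% in C1, C2 and C3, so its mean of 0.144% was 0.0707% without C1. Igfbp2 contributed 0.00204%, from its 1 count in C2. The ranges of Igfbp4 and Igfbp7 were far apart in every library. Igfbp7 lay 1.71 ± 0.16 below Igfbp4 on the log2 scale per kb (3.28-fold), and since its exons are short (1.21 kb against 4.42 kb) the gap in CPM was 12.0-fold and the shares were then 92.2 and 7.72%. Igfbp4 exceeded Igfbp6 by 633-fold per kb (9.31 ± 1.15 on the log2 scale), from 21 summed counts of the latter. The log2 values were 7.99, 9.78 and 10.15 in C1, C2 and C3, and without C1 the fold was 998. It exceeded Igfbp6 by 3001-fold in summed counts (exact 95% counting interval 1963 to 4848). Igfbp6 and Igfbp2 differed by 21.0-fold in summed counts, with a wide interval (3.38 to 868). For the comparison with Igfbp3, 3 counts per library were taken as the limit for a gene at 0. Igfbp4 was then at least 2031-fold, 7003-fold and 5856-fold higher than Igfbp3 per kb in C1, C2 and C3. In counts without length correction these bounds were 2865-fold, 9880-fold and 8262-fold. An 85-base stretch of Igfbp7 (7.03% of its exon length) is shared with the opposite-strand gene Polr2b, at 234 CPM; no source used here gives the strand setting of the counting.

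Igfbp4 was the highest of the 5 binding protein genes, and Igfbp3 was the one with no count, too low to be ordered against Igfbp2. The 250 bases before the annotated starts of Igfbp4 and Igfbp3 are therefore shown, both on chromosome 11 (RefSeq, GRCm38.p6, gene strand, 5′ to 3′). Capitals mark a TATA-type hexamer, TATAAA in Igfbp4 and TATATA in Igfbp3, the latter looked for after the sequence was seen. The windows are chr11:99040994-99041243 on the plus strand and chr11:7213924-7214173 on the minus strand.
Igfbp4: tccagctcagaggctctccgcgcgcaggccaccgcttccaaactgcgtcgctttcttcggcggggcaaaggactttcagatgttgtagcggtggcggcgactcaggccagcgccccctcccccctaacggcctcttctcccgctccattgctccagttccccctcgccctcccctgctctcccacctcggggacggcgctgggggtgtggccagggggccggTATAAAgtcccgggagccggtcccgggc
Igfbp3: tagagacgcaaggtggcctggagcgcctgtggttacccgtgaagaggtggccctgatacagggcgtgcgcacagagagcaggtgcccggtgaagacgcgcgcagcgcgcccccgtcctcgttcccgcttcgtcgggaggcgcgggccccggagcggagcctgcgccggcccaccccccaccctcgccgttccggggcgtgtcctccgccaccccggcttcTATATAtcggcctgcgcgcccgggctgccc

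The 2 windows were alike in composition. The Igfbp4 window had 69.2% G and C and 22 CpG dinucleotides, and the Igfbp3 window 73.2% and 32, against medians of 52.0% and 6 over the same window of 27025 genes. The TATA-type hexamer began 28 bases before the start in Igfbp4 and 30 in Igfbp3; on either strand, TATAAA was in 13.0% and TATATA in 5.56% of all such windows. The Igfbp6 window held a TATAAA too, on the opposite strand. Neither the Igfbp4 nor the Igfbp3 window held the GC box GGGCGG (32.9% of all) or the FOXO core TGTTTAC (3.09%) on either strand. Of the 9 genes with a promoter entry, the Igf1 window, which lies wholly in an exon annotated by GENCODE, with 5 CpG and 52.8% G and C, and the Igfbp6 window, with 7 and 49.6%, were close to the medians, while Igf1r had the most CpG (42, with 77.6% G and C). Insr has no entry. For Igfbp4 and Igfbp3 the 20 bases after the start were found in the first 400 bases of a GENCODE transcript of the gene. For Igf1, Igf1r and Igfbp6 they were not, so those annotated starts are less certain. These letters describe the windows and show no binding.

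Ordered by mean level per kilobase, the genes ran Igfbp4 (110 ± 8.95 CPM per kb), Igfbp7 (33.5 ± 4.97), Irs2, Insr, Igf1r, Irs1, Igfbp6 (0.203 ± 0.177) and Igf1 (0.0300 ± 0.0148), followed by Igfbp2 and Igfbp3, which were both too low to be ordered. With exon unions as lengths, each neighbour from Igfbp4 down to Igf1 exceeded the next by more than the SD of their within-library difference, in 3 of 3 libraries. Igf1r and Irs1 were then 0.43 ± 0.05 apart on the log2 scale, and Irs2 and Insr 0.56 ± 0.10 apart. With the longest transcript as length, Irs2 and Insr did not differ beyond their spread (6.21 and 6.20 CPM per kb, 0.01 ± 0.10 apart, Irs2 higher in 2 of 3 libraries), and Igf1r and Irs1 were 0.99 ± 0.05 apart. Set among all genes at 1 CPM or more, whose median was 8.31 CPM per kb, Igfbp4 was above 95.6% and Igfbp7 above 84.5%, whereas Irs2 was above 41.4%, Insr above 31.2%, Igf1r above 16.5% and Irs1 above 12.2%. The receptor and adaptor genes therefore lay below the median once length was taken into account, although Insr, Irs2 and Igf1r were close to or above the median of 35.9 in CPM. Without length correction Insr moved above Igfbp7 and Irs2, and Igf1 above Igfbp6.

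**Figure D2:**
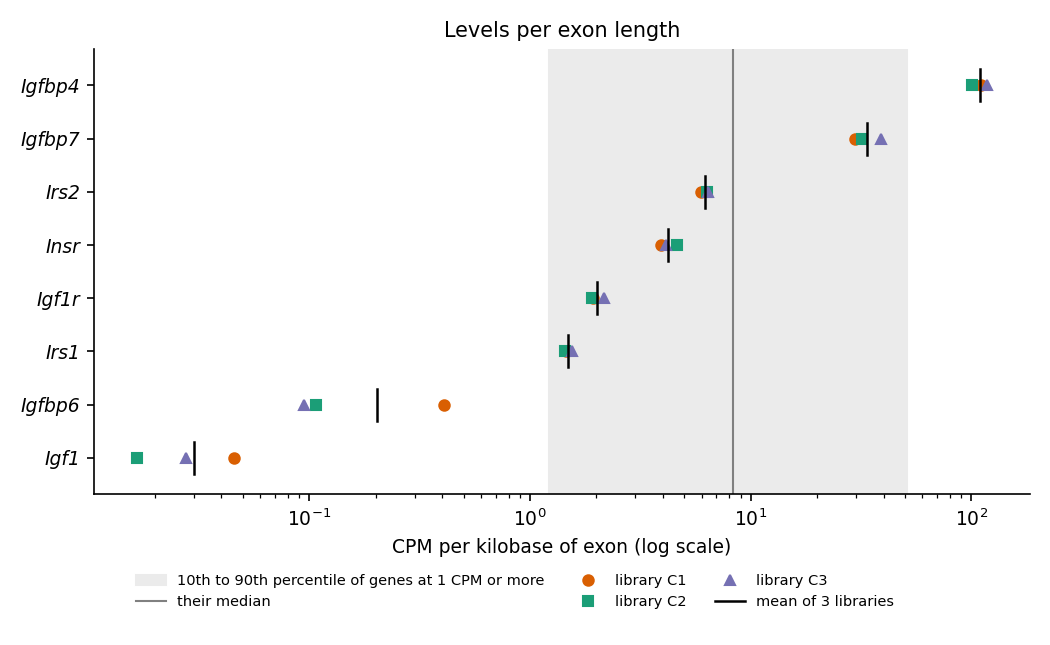
Level per kilobase of exon (log axis) of the 8 genes with 3 or more summed counts; symbols are the 3 libraries, bars their mean, the grey band the 10th to 90th percentile of all genes at 1 CPM or more (1.22 to 50.8 CPM per kb) and the grey line their median. Igfbp4 lies above the band, Igfbp6 and Igf1 below it, and the receptors and adaptors on the low side of the median.

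The 6 genes at 1 CPM or more differed little between the libraries, and part of the difference exceeded counting noise. Their highest and lowest libraries were 1.07-fold apart for Irs1, 1.08-fold for Irs2, 1.13-fold for Igf1r, 1.18-fold for Insr and Igfbp4 and 1.32-fold for Igfbp7. Of the 6, 5 were highest in C3 (34% of all genes at 1 CPM or more were), Insr was highest in C2 (35.7% of all) and 0 in C1 (30.3% of all). In a Poisson dispersion test over all 13026 genes passing the filter on low counts (Benjamini-Hochberg adjustment), 4 of the 6 varied beyond counting noise, beside 39.3% of all genes: Igfbp4 (adjusted p = 7.48e-82), Igfbp7 (1.79e-14), Insr (3.86e-07) and Igf1r (0.000819). Irs1 (0.469) and Irs2 (0.328) did not pass, and Irs1 had the fewest counts of the 6, which limits that test.

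None of the 6 varied detectably more than genes of similar level. In edgeR's quasi-likelihood F test 0 of 6 passed (adjusted p between 0.660 for Igfbp7 and 0.995), where 0.0691% of all genes did, and the 2 with an unadjusted p under 0.05 were Igfbp7 (0.0106) and Igfbp4 (0.0347), where 5.15% of all genes had one. That count was 1 without C2 and 1 without C3, where 702 of 12774 and 619 of 12970 genes had one. Leaving out 1 library removed several calls of the Poisson test. Without C3, Igfbp7 (adjusted p = 0.319) and Igf1r (0.977) no longer passed, and without C2 neither did Insr (0.375) or Igf1r (0.0638), while Igfbp4 passed with any library left out (1.26e-06 or lower). Of the 6 genes 4, 2 and 2 passed without C1, C2 and C3, beside 36.8, 13.8 and 12.9% of all genes. Igf1, Igfbp2 and Igfbp6 did not reach the filter. In the unfiltered test, in which 26.5% of 18797 genes were called, the adjusted p was 0.199 for Igf1, 0.731 for Igfbp2 and 0.0182 for Igfbp6, values that rest on a chi-square approximation at few counts.

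**Figure D3:**
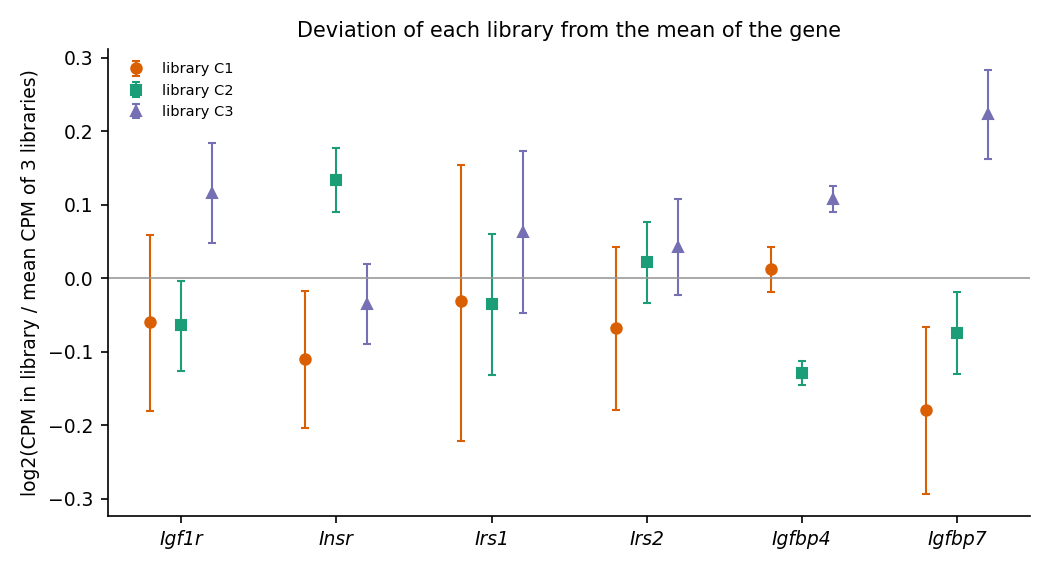
Deviation of each library from the mean CPM of the gene on the log2 scale, for the 6 genes at 1 CPM or more, with exact 95% intervals for counting error. C3 is the highest for 5 genes and C2 for Insr; the intervals of the libraries overlap for Irs1 and Irs2, and that of C3 for Igfbp7 lies above those of C1 and C2.

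WISP2 itself shares the IGFBP-type domain, and its gene was read beside the binding proteins. Wisp2 stood at 219 ± 18.4 CPM per kb, 6.57-fold above Igfbp7 per kb (2.72 ± 0.17 on the log2 scale, in 3 of 3 libraries) and 10.5-fold in counts. Reads of the introduced gene are included only as far as they match the annotated mouse gene. Igfbp4 and Wisp2 ran in parallel over the libraries, a comparison added after the values were seen: the log2 ratio per kb of Wisp2 to Igfbp4 was 1.01, 1.00 and 1.00 in C1, C2 and C3, with an SD of 0.00904. That SD is under the counting error of the ratio in any single library (0.0123 to 0.0228), and 4 of 2466 genes at 100 CPM or more, Wisp2 among them, had one as small against Igfbp4, where the median was 0.132. With 3 libraries this is a description only.

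Other proteins with an IGFBP-type domain were also read. At 1 CPM or more in every library were 6 of 12 such genes, beside 33.8% of all symbols. Highest per kb were Wisp2, Cyr61 (125 ± 24.1 CPM per kb), Htra1 (119 ± 6.01) and Ctgf (72.0 ± 10.2), while Wisp3 had 0 counts. Cyr61 and Ctgf are matricellular CCN proteins, and Htra1 is a secreted serine protease that can cut IGFBPs. Both Cyr61 (246, 207 and 304 CPM) and Ctgf (191, 188 and 240 CPM) were highest in C3 and lowest in C2, as Igfbp4 was. Wisp2 had the same order, whereas Wisp1, Htra1 (323, 356 and 347 CPM) and Crim1 were highest in C2. Among all genes at 1 CPM or more, 34% were highest in C3 and 35.7% in C2. In the F test of edgeR 0 of the 8 genes past the filter were called, with adjusted p = 0.0978 for Cyr61 and 0.310 for Ctgf, where 0.0691% of all genes were. Without C1 Cyr61 was called (0.0133), where 0.39% of all genes were. Without the filter on low counts Cyr61 (2.39e-07) and Ctgf (0.00334) were called, where 0.91% of all genes were. These values therefore depend on the setting. An unadjusted p under 0.05 was found for 4 of the 8, beside 5.15% of all genes. Without C2 it was found for 2 of the 8, beside 702 of 12774 genes. The Poisson test was passed by 6 of the 8, beside 39.3% of all genes.

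Genes that release or process IGF-axis proteins were partly present. Of 7 IGFBP proteases and stanniocalcins 4 reached 1 CPM in every library, beside 33.8% of all symbols. The metalloproteases Adam9 (157 ± 9.95 CPM) and Adam12 (78.0 ± 9.15), which can cut binding proteins, were the highest. Stc2 (13.3 ± 1.23) and Stc1 (9.47 ± 1.56), the stanniocalcins that inhibit PAPP-A, followed. Pappa, the gene of the protease that removes IGFBP4, had 2 counts in all, against 63022 of Igfbp4. Pappa2 stood at 0.869 ± 0.0933 CPM and Adam28 had 0 counts. Among the proprotein convertases, which mature the receptors and pro-IGFs, Furin stood at 105 ± 8.10 CPM, Pcsk7 at 23.2 ± 2.47 and Pcsk6 at 8.26 ± 0.856, and Pcsk5 had 0 counts.

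Downstream of the receptors nearly all genes were transcribed. All 21 genes of the phosphoinositide 3-kinase, AKT, FOXO and mTOR list reached 1 CPM. Their median was 10.3 CPM per kb, beside 8.31 for all genes at 1 CPM or more. The 10 IGF genes, of which 4 were under 1 CPM, had a median of 1.74 CPM per kb. The highest per kb were the kinase gene Akt1 (132 ± 6.54 CPM per kb) and the translation repressor gene Eif4ebp1 (55.4 ± 3.51). Of the 6 other adaptors Grb2 (89.8 ± 2.30 CPM), Shc1 (110 ± 1.93), Sos1 (88.7 ± 3.90) and Gab1 (6.83 ± 0.256) reached 1 CPM, which left Irs3 and Irs4 as the ones that did not. Of the 8 genes listed as negative regulators, a role not tested here, 7 reached 1 CPM. Highest per kb were the ubiquitin ligase Nedd4 (96.2 ± 2.38 CPM per kb) and the phosphatase Ptpn1 (12.9 ± 1.06). The cytokine-signalling suppressors Socs3 (5.22 ± 0.209) and Socs1 (1.32 ± 0.0287) came next. Grb10, the imprinted adaptor that dampens the insulin and IGF1 receptors, had 0 counts. Over the 11 lists, 52 of 75 genes reached 1 CPM and 11 had 0 counts, where 33.8 and 45.7% of all symbols did. In the F test of edgeR 0 of the 55 genes past the filter were called, beside 0.0691% of all genes. An unadjusted p under 0.05 was found for 7 of the 55, beside 5.15% of all genes. Without C2 it was found for 4, beside 702 of 12774 genes. The Poisson test was passed by 27 of the 55, beside 39.3% of all genes, by 11 without C2 (13.8% of all) and by 14 without C3 (12.9% of all).

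**Figure D4:**
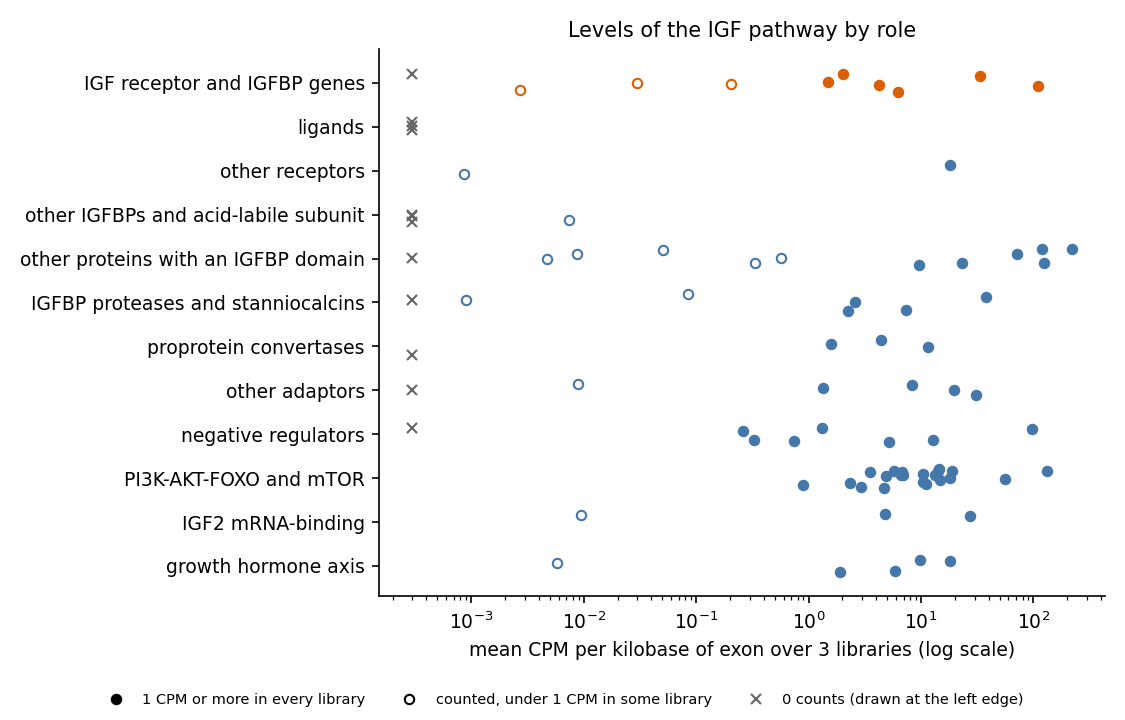
Mean level per kilobase over 3 libraries (log axis) of the 10 IGF receptor and IGFBP genes (orange) and of 75 other genes of the pathway by role (blue); filled points reached 1 CPM in every library, open points were counted but did not, and crosses had 0 counts. Ligands and other IGFBPs lie at or near 0, and the genes downstream of the receptors mostly lie between 1 and 100 CPM per kb.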

How the data were processed

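Messenger RNA of 3 samples of 4T1 cells labelled WISP2 OE was sequenced from stranded poly(A) libraries, per the labels' protocols. The deposited table gives raw whole-number read counts per gene symbol, per the file headers. The submitters' processing notes name CASAVA 1.7, BWA, STAR and HTSeq and the build mm9, with no role or order. Which annotation, strand setting and rule for multi-mapped reads were used is not given in the sources used here. Each row carries a symbol. Columns are named unlike the samples, so they stand for the group and not for single samples. The members and gene lists were chosen with earlier results of these data known.

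CPM were counts over column totals. Levels per kilobase used the union of exons in GENCODE M21 (GRCm38, another build, used for lengths and overlaps only), which matched 91.0% of symbols by current or older symbol. Ratios were taken within libraries with 0.5 counts added. Intervals are exact 95% (Clopper-Pearson), and 3 counts set the limit for a gene at 0. Both leave out all error but that of counting, and PCR copies were not marked by molecular identifiers. Spread was tested with edgeR 4.0.16 (R 4.3.3) using filterByExpr, TMM scaling and an intercept-only model: a Poisson dispersion test against a chi-square with 2 degrees of freedom, and the F ratio of quasi-likelihood dispersion to its trended prior, both with Benjamini-Hochberg adjustment at 0.05 over all genes. Named genes are the 10 members, all genes of the pathway lists with up to 7 genes, and the 4 highest per kilobase and up to 3 at 0 counts of longer lists. Part of that selection is left unreported here. From the longer lists Wisp1, Crim1 and Socs2 were named outside that rule. Alternatives covered scaling (DESeq2 1.42.0 size factors), length, added counts, filter, robust fit, thresholds and leaving out each library.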

Additional observations from a re-analysis of the deposited data

How the results depend on the processing

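Length correction was the choice that moved most values. Without it 5 of the 10 genes kept their place in the order, the log2 ratio of Igf1r to Insr was -0.78, of Irs1 to Irs2 -1.53, of Igf1r to Igf2r -2.33, of Igfbp7 to Igfbp4 -3.58, of Igfbp4 to Igfbp6 11.30, of Wisp2 to Igfbp7 3.39 and of Igf1r to Igf1 6.88, and Igfbp4 and Igfbp7 took 92.2 and 7.72% of the IGFBP counts. With the longest transcript as length, Igf1r to Igf2r was -2.69, Igfbp7 to Igfbp4 -1.91, and the shares were 78.8 and 21.0%. Irs2 and Insr were then level at 6.21 and 6.20 CPM per kb. None of these 7 ratios changed sign. The preset pairs that include Igfbp2 were not part of this check. Scaling by TMM or DESeq2 size factors moved no mean CPM of the 10 genes by more than its SD. Leaving out C1 moved Igfbp6 to 0.112 CPM and 0.0707% of the IGFBP sum and moved the log2 ratio of Igfbp4 to Igfbp6 to 9.96; without C2 Igfbp2 was at 0 counts. Besides, 6 of the 10 reached 1 CPM in every library at thresholds of 0.5 and 2 CPM too.

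The count of genes varying beyond counting noise, 5118, was between 1667 and 4908 with 1 library left out. Dropping C3 gave the lowest value, and dropping C2, the library with the most counts, gave 1761. The highest value came from dropping C1. Any pair holds fewer counts than all 3 libraries, but the part of depth in this drop was not tested. The 9 genes varying beyond genes of similar level became 14 with library totals, 171 without the filter, 0 in the robust fit (588 at an unadjusted p under 0.05) and 3 to 52 with 1 library left out; the cause was not tested. Of the 10 genes, the 6 past the filter were tested in every filtered setting and 9 without the filter. None of those tested was called in these F tests. Their lowest adjusted p was 0.0888, for Igfbp7 without the filter. Igfbp3, with no count, was in no test. Of the 75 other pathway genes, Cyr61 was called without C1 (0.39% of all genes were) and, with Ctgf, without the filter (0.91% were). DESeq2 size factors in the F test were added after seeing the data. No paired analysis was possible because the samples form a single group and the columns carry no sample number. Depth limits Igf1, Igfbp2, Igfbp3 and Igfbp6, whose few counts resolve differences between libraries poorly.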

Other observations

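The growth hormone axis, which drives IGF1 production in liver, was transcribed apart from the hormone itself. The receptor gene Ghr stood at 53.1 ± 2.78 CPM (SD, n = 3), its kinase Jak2 at 90.9 ± 5.16, and the transcription factor genes Stat5b and Stat5a at 54.1 ± 0.849 and 13.7 ± 0.754, whereas Gh had 1 count in all. Igf1, a gene that growth hormone induces in liver through STAT5, averaged 0.297 CPM in the same libraries. Socs2, a feedback gene of the same axis named here after its values were seen, stood at 2.95, 4.06 and 2.38 CPM in C1, C2 and C3.

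The genes of the IGF2 mRNA-binding proteins, which bind and stabilise many transcripts beside that of IGF2, were present although Igf2 had 0 counts. Igf2bp2 stood at 203, 204 and 202 CPM in C1, C2 and C3 and Igf2bp1 at 47.1, 49.4 and 43.2 CPM, and Igf2bp3 had 11 counts in all.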
